A study of Mus musculus with 10 samples.

Results

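Caveolae are small flask-shaped pits of the plasma membrane, and the genes that build them are the subject here: the caveolins Cav1, Cav2 and Cav3, the cavins Cavin1, Cavin2 and Cavin3, and the membrane-shaping proteins Ehd2 and Pacsin2. These 8 genes were taken by name from a table of 52636 gene identifiers. All 8 were present, and 7 passed the filter on low counts, which kept 15927 genes. The exception was Cav3. RNA had been sequenced from inguinal white fat, which lies under the skin, taken from C57BL/6 mice aged 6 months on a 65% high-fat diet. The diet lasted 16 weeks according to the diet label and 4 months in the treatment protocol, but 12 weeks in the sample descriptions. The 5 control libraries came from mice labelled wild type whose titles and growth protocol give a floxed Tcf7l2 allele (F/F) without Cre; the titles write TCF7 for the gene. The 5 knockout libraries came from mice with the same floxed allele and Adp-Cre, a recombinase transgene directed to fat. All mice thus carried the floxed allele and ate the same diet, and mice with Cre but no floxed allele were not analysed here. Tcf7l2 encodes a transcription factor of the Wnt pathway, and the comparison asks how fat differs when adipocytes lack it.

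Caveolae are densest in adipocytes and are also abundant in endothelial and smooth muscle cells. Caveolin oligomers wedge into the inner leaflet of the membrane together with cholesterol, and a coat of cavins assembles over them. EHD2 forms a ring at the neck that holds the pit at the surface, and PACSIN2 bends the membrane there. In mice and humans, loss of CAV1 or CAVIN1 removes caveolae from fat and causes lipodystrophy, and in adipocytes caveolae flatten to supply membrane when the cell swells and take part in fatty acid uptake and insulin signalling. The counts came from whole tissue, so fewer cells of a type and less RNA per cell cannot be told apart.

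Of the 7 caveola genes tested, 0 rose and 0 fell in the knockout at an adjusted p below 0.05 in the quasi-likelihood test of edgeR, where 12.9% of all tested genes passed (5.84% higher and 7.05% lower). Their fold changes were small, with log2 values between -0.06 for Ehd2 and 0.22 for Cavin1. Cavin1 and Cavin3 had an unadjusted p below 0.05, as did 31% of all tested genes. DESeq2 called 1 member, Cavin1, higher (adjusted p = 0.042, with 16.8% of genes called), and limma-voom called 0 (10.3% of genes). When 1 library was left out, 2 members passed without control 5, where 19.1% of genes did, and 0 in the other 9 fits. In those fits the share of all genes called was 3.49%, 3.33%, 10.6% and 5.61% without controls 1 to 4 and 14.1%, 6.17%, 9.13%, 10.3% and 5.45% without knockouts 1 to 5. With no filter (5.82% of genes called) or with the skeletal muscle marker score as a covariate (3.97%), 0 members passed. The CPM ranges of the groups overlapped for all 7, while they were apart for 8.99% of tested genes. The median log2 fold change was 0.16 over the 7 members and 0.00018 over all tested genes. The 7 tested members were measured at between 1219 and 69284 counts per library. Counting error was thus a small part of the spread for Cav1 and a larger part for Pacsin2, the lowest of them.

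The upstream sequences of the neighbouring genes Cav2 and Cav1, and of Cavin2, are shown because the Tcf7l2 protein acts by binding DNA and because Cav1 and Cav2 were the pair with the highest correlation (below). Each line holds the 250 bases before a RefSeq start site on GRCm38.p6, written 5′ to 3′ on the strand of the gene. Capitals mark the CCAAT box (CCAAT) and the GC box (GGGCGG or, on the other strand, CCGCCC), general promoter elements that were added to the search after the sequences had been seen. The Cav1 window is chr6:17306085-17306334, the Cav2 window chr6:17280935-17281184 and the Cavin2 window chr1:51288876-51289125, all on the plus strand.
Cav1: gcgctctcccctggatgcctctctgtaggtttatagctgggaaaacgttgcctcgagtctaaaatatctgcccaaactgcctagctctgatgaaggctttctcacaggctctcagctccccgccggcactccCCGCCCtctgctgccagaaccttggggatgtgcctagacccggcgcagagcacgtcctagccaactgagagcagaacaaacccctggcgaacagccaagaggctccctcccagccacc
Cav2: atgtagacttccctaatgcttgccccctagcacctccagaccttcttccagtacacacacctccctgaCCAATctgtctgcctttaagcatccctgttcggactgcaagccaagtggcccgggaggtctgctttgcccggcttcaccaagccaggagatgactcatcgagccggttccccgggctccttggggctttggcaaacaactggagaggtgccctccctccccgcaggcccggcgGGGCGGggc
Cavin2: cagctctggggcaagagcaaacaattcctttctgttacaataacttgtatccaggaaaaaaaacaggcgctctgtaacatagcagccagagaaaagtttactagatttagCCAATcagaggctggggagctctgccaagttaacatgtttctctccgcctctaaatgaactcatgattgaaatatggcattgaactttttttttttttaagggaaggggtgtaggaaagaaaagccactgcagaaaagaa

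RefSeq windows of 300 bases, which reach 50 bases past the start site, were given for 7 of the 8 genes, with 11 windows in all. The core sequence bound by the TCF/LEF family, CTTTGAA or CTTTGAT on either strand, was in 0 of these 11 windows and in 8.65% of the 32817 windows of all genes. The sterol regulatory element TCACNCCAC was in 0 of 11, against 1.24% of all windows, and the direct repeat (DR1) bound by PPAR and RXR receptors was in 0 of 11, against 0.0396%. A CCAAT box was in 7 of 11 windows, those of Cav2, Cavin1, Cavin2, Ehd2 and Pacsin2 among them, and in 37.4% of all windows. A GC box was in 6 of 11, from Cav1, Cav2, Cavin1, Ehd2 and Pacsin2, and in 35.6% of all windows. Cavin1 windows 1 and 2 cover nearly the same bases, so their boxes are counted in both. The 250 upstream bases of each lie in annotated Cavin1 exons. The Cav2 and Cav1 windows held 62% and 59.6% G and C, and the Cavin2 window held 40.4%, against a median of 52.4%. These matches describe letters in short windows and say nothing of binding.

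The levels set the caveola genes apart from each other. Compared per kilobase of exon, Cav1 stood at 1077.4 ± 103.2 CPM per kb in the controls (mean ± SD, n = 5), where CPM is the count scaled to a common library total. Averaged over the 10 libraries, that placed Cav1 at rank 25 of the 15927 tested genes. Cavin1 followed at 469.2 ± 44.7, Cavin2 at 341.6 ± 18.6 and Cav2 at 202.0 ± 18.7 CPM per kb. Cavin3 at 125.7 ± 13.2 and Ehd2 at 102.5 ± 10.4 CPM per kb were neighbours whose control ranges overlapped. Pacsin2 at 17.7 ± 1.04 CPM per kb came seventh, and Cav3 at 0.123 ± 0.145 CPM per kb came last. The control ranges of all other neighbours in this order were apart, and the order was the same in the knockouts, with Cav1 at 1172.8, Cavin1 at 545.8 ± 41.9 and Pacsin2 at 18.7 ± 1.37 CPM per kb. Lengths are of all annotated exons merged, so a gene that uses a short isoform is understated.

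**Figure D1:**
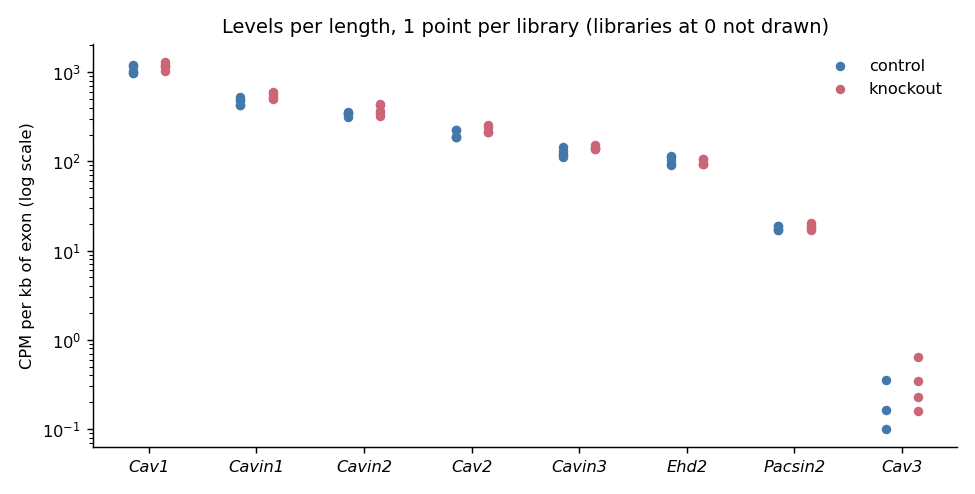
CPM per kilobase of merged exon (log axis) for the 8 caveola genes, 1 point per library, controls in blue and knockouts in red. Cav1 lies highest, with a control mean of 1077.4 CPM per kb, and Cav3 lowest, with libraries at 0 not drawn.

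Among the caveolins, Cav1 (GRCm38 chromosome 6, 17306335 to 17341452, plus strand) encodes the protein that forms the scaffold of caveolae outside striated muscle. It stood at 3553.5, 3406.3, 4126.1, 3405.7 and 4060.7 CPM in controls 1 to 5 and at 3560.8, 4176.4, 4085.9, 3927.2 and 4445.9 CPM in knockouts 1 to 5. The groups overlapped, with controls 3 and 5 among the knockout values and knockout 1 among the lower controls. The log2 fold change was 0.12 (SE 0.087, adjusted p = 0.359), with a 95% interval from -0.07 to 0.31, which corresponds to between 0.956 and 1.24 times the control level. Leaving out each library in turn gave log2 values from 0.09 to 0.17.

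Cav2, whose protein joins CAV1 in mixed oligomers and needs it to reach the surface, lies 17.2 kb upstream of Cav1 on the same strand (chromosome 6, 17281185 to 17289115). Its CPM was 629.3, 622.2, 740.9, 633.2 and 742.7 in controls 1 to 5 and 708.4, 808.6, 707.7, 709.1 and 842.7 in knockouts 1 to 5. All 5 knockouts were above the control mean of 673.7 CPM, but controls 3 and 5 were above knockouts 1, 3 and 4. The log2 fold change was 0.16 (SE 0.082, adjusted p = 0.191), with a 95% interval from -0.01 to 0.34. The ratio of Cav2 to Cav1 within a library, which no scaling between libraries can move, averaged 18.2 ± 0.339% over the controls and 18.7 ± 1.03% over the knockouts (exact permutation p = 0.286, n = 5 per group).

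Cav3, the caveolin of skeletal and heart muscle (chromosome 6, 112459505 to 112472872, plus strand), was at the limit of detection. Its counts were 0, 3, 0, 6 and 2 in controls 1 to 5 and 13, 3, 6, 4 and 0 in knockouts 1 to 5, where a floor of 3 counts corresponds to between 0.172 and 0.205 CPM. Only knockout 1 exceeded the highest control, and the exact two-sided permutation test on log2(CPM + 0.5) gave p = 0.310 (n = 5 per group). Summed CPM of 14 skeletal muscle markers, the tissue that expresses Cav3 most, ran from 25.3 to 574.1 in the controls and from 43.1 to 799.3 in the knockouts, with the highest value in knockout 1. In control 5, however, these markers summed to 574.1 CPM while Cav3 had 2 counts. The part of muscle in the Cav3 values was not tested. Cavin4, the muscle cavin, was also low, with 0.382 to 1.47 CPM in the controls and 0.730 to 1.90 CPM in the knockouts (log2 fold change 0.82, SE 0.39, adjusted p = 0.174). Its 3 highest libraries, knockout 1, knockout 3 and control 5, were those with the highest muscle sums of 799.3, 632.9 and 574.1 CPM.

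**Figure D2:**
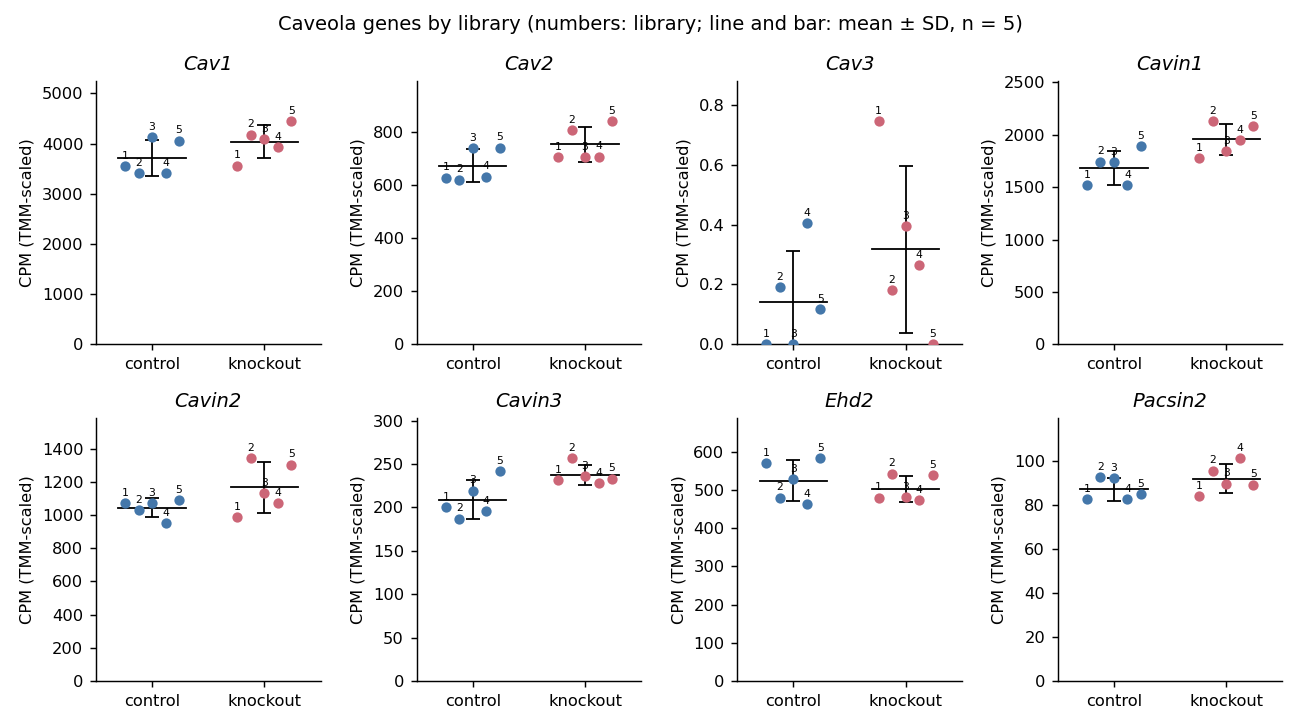
TMM-scaled CPM of the 8 caveola genes in each library (points, numbered within the group), with mean and SD of the 5 controls (blue) and 5 knockouts (red). The groups overlap in every panel; Cavin1 runs from 1519.8 to 1889.9 CPM in controls and from 1780.5 to 2130.5 CPM in knockouts.

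Among the cavins, Cavin1 (formerly Ptrf, chromosome 11, 100956733 to 100970887, minus strand) encodes the coat protein without which no caveola forms. It had the largest log2 fold change of the 7 tested members. Its CPM was 1520.6, 1745.0, 1739.7, 1519.8 and 1889.9 in controls 1 to 5 and 1780.5, 2130.5, 1843.2, 1951.8 and 2083.8 in knockouts 1 to 5. All knockouts lay above the control mean of 1683.0 CPM and 3 of 5 above the highest control, which was control 5. The log2 fold change was 0.22 (SE 0.083, unadjusted p = 0.022, adjusted p = 0.098), with a 95% interval from 0.04 to 0.40. Without control 5 it was 0.27 with an adjusted p of 0.043, and over the 10 fits that left out a library the adjusted p ran from 0.043 to 0.221. Against Cav1 within each library, Cavin1 averaged 45.5 ± 3.64% over the controls and 48.5 ± 2.46% over the knockouts (exact permutation p = 0.159, n = 5 per group).

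Cavin2 (formerly Sdpr, chromosome 1, 51289126 to 51302960, plus strand), whose protein adds curvature to the coat, had CPM values of 1073.9, 1028.3, 1072.2, 950.7 and 1092.4 in controls 1 to 5. Knockouts 1 to 5 held 986.2, 1345.0, 1130.8, 1072.2 and 1304.3 CPM. Knockouts 2, 3 and 5 exceeded every control and knockout 1 lay below 4 of the 5. The spread was wider in the knockouts, with an SD of 152.9 against 57.0 CPM, and the log2 fold change was 0.16 (SE 0.090, adjusted p = 0.239). It amounted to 62.3 ± 5.03% of Cavin1 among controls and 59.5 ± 4.00% among knockouts (exact permutation p = 0.381, n = 5 per group).

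Cavin3 (formerly Prkcdbp, chromosome 7, 105480083 to 105482300, minus strand) encodes a cavin linked to the traffic of caveolae along the cytoskeleton. It stood at 200.4, 187.1, 219.2, 196.0 and 242.2 CPM in controls 1 to 5 and at 231.4, 257.0, 236.1, 227.8 and 233.1 CPM in knockouts 1 to 5. All knockouts were above 4 of the 5 controls, and control 5 was above 4 of the 5 knockouts. The log2 fold change was 0.18 (SE 0.074, unadjusted p = 0.029, adjusted p = 0.116), with a 95% interval from 0.02 to 0.34. Without control 5 the value was 0.24 and the adjusted p 0.024, and without the other libraries the call was not made (adjusted p up to 0.252). Of its exonic bases 22.5% are also annotated to Gm45667, a locus counted separately at 3 to 19 reads per library, so reads of that stretch may have been assigned differently. Cavin3 amounted to 12.4 ± 0.983% of Cavin1 among controls and 12.2 ± 0.762% among knockouts (exact permutation p = 0.635, n = 5 per group).

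Of the neck proteins, Ehd2, an ATPase (chromosome 7, 15946958 to 15967567, minus strand), was the only tested member with a negative log2 fold change, -0.06 (SE 0.080, adjusted p = 0.636, 95% interval from -0.23 to 0.11). Its CPM was 569.4, 479.8, 527.6, 462.8 and 584.1 in controls 1 to 5 and 479.9, 542.8, 480.6, 472.6 and 538.5 in knockouts 1 to 5, so the knockouts lay inside the control range. Relative to Cav1 in the same library, Ehd2 averaged 14.2 ± 1.20% over the controls and 12.5 ± 0.727% over the knockouts, a log2 difference of -0.18 (unadjusted exact permutation p = 0.032, n = 5 per group). Adjusted over the 6 ratios examined, p was 0.190, so this difference did not pass. By library the ratio stood at 16.0, 14.1, 12.8, 13.6 and 14.4% in controls 1 to 5 and 13.5, 13.0, 11.8, 12.0 and 12.1% in knockouts 1 to 5, and the groups overlapped through control 3 and knockouts 1 and 2.

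Pacsin2, whose F-BAR protein bends membrane at caveolae and endocytic sites (chromosome 15, 83375607 to 83464606, minus strand), had between 82.4 and 92.6 CPM in the controls and between 83.7 and 101.2 CPM in the knockouts. Its log2 fold change was 0.08 (SE 0.064, adjusted p = 0.422, 95% interval from -0.06 to 0.22). It was 2.36 ± 0.237% of Cav1 in the controls and 2.28 ± 0.211% in the knockouts (exact permutation p = 0.611, n = 5 per group). Adjusted over the 6 ratios, p lay between 0.190 and 0.635, and the smallest exact p that 5 against 5 libraries can give is 0.0079.

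**Figure D3:**
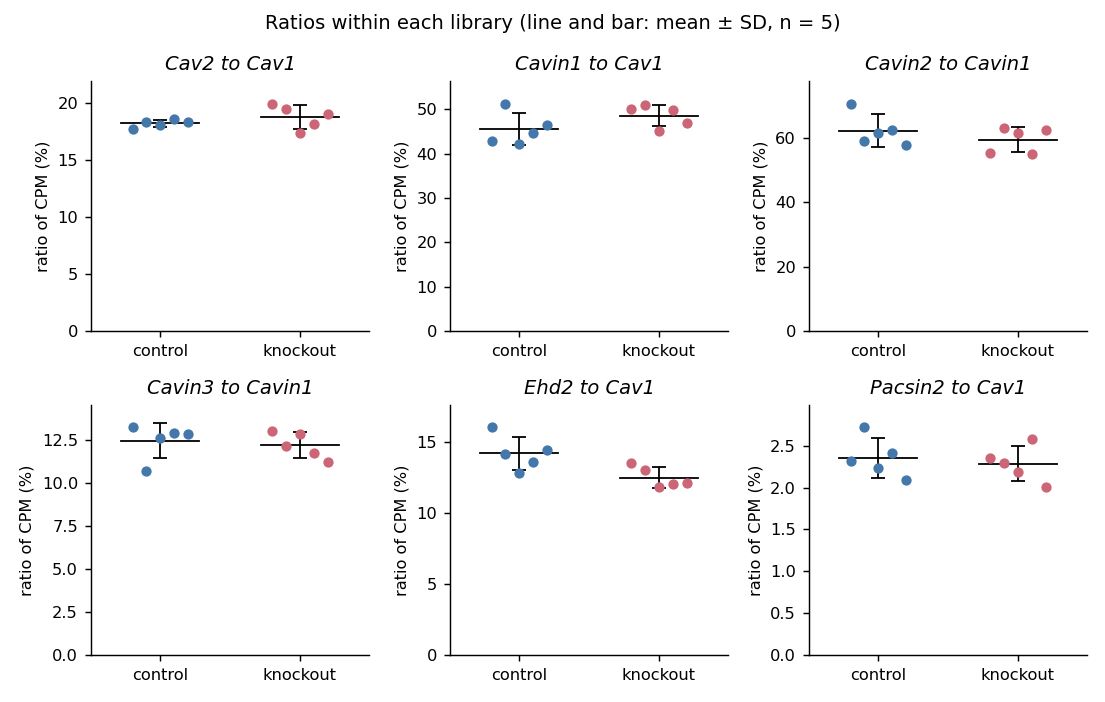
Ratio of the CPM of 2 caveola genes within each library, in percent, with mean and SD of 5 controls (blue) and 5 knockouts (red). The groups overlap in all 6 panels; Ehd2 to Cav1 has means of 14.2% and 12.5%.

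Cav1, Cav2, the cavins and Ehd2 had positive correlations with each other over the libraries once the group means were removed. Cav1 and Cav2 were the closest pair, with a Pearson r of 0.89 (Spearman rho 0.71) over 10 libraries after the mean of each group had been removed. Among the other pairs of Cav1, Cav2, the cavins and Ehd2, r ran from 0.49 (Cavin2 with Cavin3) to 0.78 (Cav2 with Cavin1). For Pacsin2, r was 0.51 to Cavin1, 0.26 to Cav1, 0.25 to Cavin2, 0.12 to Cav2, -0.01 to Cavin3 and -0.12 to Ehd2. These are descriptions with no test, and the points share their scaling. That scaling moved with the members: the TMM factors, which correct each library total and ran from 0.9333 in knockout 5 to 1.057 in control 4, had an r over the same 10 group-centred libraries of -0.86 with Cav1 (rho -0.89), -0.84 with Cav2 and -0.80 with Ehd2, but -0.07 with Pacsin2, against a median of 0.05 over all tested genes. Of all tested genes 6.01% had an r with these factors at or below the highest of Cav1, Cav2 and Cavin1. CPM is divided by the factors, so part of that r is built in. With library totals alone, an alternative chosen after seeing the data, r with the factors was -0.68 for Cav1, -0.64 for Cav2 and -0.55 for Ehd2. Between members, r under that scaling fell to 0.77 for Cav1 with Cav2, to 0.44 for Cav1 with Cavin1 and to 0.11 for Cavin1 with Ehd2. The fold changes moved little under that scaling, with log2 values of 0.09 for Cav1, 0.19 for Cavin1 and -0.09 for Ehd2 and adjusted p-values of 0.390, 0.085 and 0.354, while the median of all genes was -0.03.

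The genes whose pattern within the groups was most like that of Cav1 were Mest, an imprinted gene known to rise in expanding fat, at r = 0.98, then the proteasome subunit gene Psmc5, Plekha3, the RNA-processing gene Lsm3 and Haus7, each at r = 0.97 over 10 libraries. Cav2 was at rank 132 of 12258 genes in this order. For Cavin1 they were Smdt1, which encodes a part of the mitochondrial calcium uniporter, and the prefoldin subunit gene Pfdn2, both at r = 0.95, followed by the secreted Wnt antagonist gene Sfrp5, the potassium channel gene Kcnn1 and Cbwd1 at r = 0.94. A shared pattern within groups did not mean a shared difference between them. Sfrp5 was lower in the knockout (log2 fold change -0.41, adjusted p = 0.025), Smdt1 was higher (0.24, adjusted p = 0.041), and without centring on the groups r with Cavin1 was -0.12 for Sfrp5 and 0.97 for Smdt1. Mest, with a log2 value of -0.07 between the groups, did not pass (adjusted p = 0.725). With so many genes and 10 libraries, values of this size are a ranking and not a sign of a link.

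Of 15 relatives of the machinery (other cavins, EHD and PACSIN proteins, dynamins, flotillins, filamin A and kinases that act on caveolin), 14 were tested, 1 fell and 0 rose, where 7.05% of all tested genes fell and 5.84% rose, with a median log2 fold change of -0.01. The gene that fell was Pacsin3, a PACSIN expressed mainly in muscle and also in fat. It had 7.13 CPM in control 2, between 9.70 and 10.3 CPM in the other controls, and 5.57, 7.54, 6.53, 6.50 and 5.34 CPM in knockouts 1 to 5, so the groups overlapped only through control 2 and knockout 2. Its log2 fold change was -0.59 (SE 0.13, adjusted p = 0.018), lost without control 1 (adjusted p = 0.053). Ehd1, the recycling relative of Ehd2, stood at 140.6 ± 16.2 and 163.6 ± 15.2 CPM (log2 fold change 0.22, adjusted p = 0.108), and the flotillin gene Flot1 at 0.18 (adjusted p = 0.173). The kinase gene Csk had a log2 fold change of 0.33 (edgeR adjusted p = 0.092). It held 78.5 CPM in knockout 1 and between 49.1 and 55.9 CPM in the other knockouts. Without control 5, Ehd1 and Cavin4 passed as higher.

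Of 18 genes whose proteins have been placed in caveolae or bound to caveolins, 3 fell, 0 rose and 15 did not pass, beside the same 7.05% lower and 5.84% higher over all tested genes, with a median of -0.09. Slc2a4, the insulin-responsive glucose transporter, had 87.0, 79.7, 75.5, 67.7 and 75.0 CPM in controls 1 to 5 and 53.9, 58.4, 52.6, 44.6 and 52.8 CPM in knockouts 1 to 5, with no overlap. Bmpr2, a BMP receptor, fell from 217.6 ± 18.8 to 169.0 ± 10.8 CPM (log2 fold change -0.36, adjusted p = 0.012), and Kdr, the main VEGF receptor of endothelium, from 153.9 ± 23.5 to 113.4 ± 9.37 CPM (-0.44, adjusted p = 0.017). All 3 calls held whichever of the 10 libraries was left out. With the skeletal muscle score as a covariate, where 3.97% of all genes passed, Kdr was not called. Slc2a4 (edgeR adjusted p = 0.01) and Bmpr2 (0.041) were still called in that fit. With the summary of endothelial markers described next as a covariate, a fit in which 0.0753% of all genes passed, log2 fold changes were -0.54 for Slc2a4 (adjusted p = 0.334), -0.47 for Pacsin3 (0.593), -0.20 for Bmpr2 (0.685) and -0.16 for Kdr (0.827). That summary, a mean log2 CPM, ran from 6.00 to 6.45 in the controls and from 5.79 to 5.99 in the knockouts. The groups were thus only just apart, and the fit can hardly separate it from genotype. Cd36, the fatty acid translocase, was not called, with 8202.7 ± 547.7 CPM in controls and 8085.9 ± 855.9 CPM in knockouts (adjusted p = 0.900). Nor was Insr, the insulin receptor gene, with 123.3 ± 13.1 against 115.3 ± 12.3 CPM (adjusted p = 0.478), or Plvap, the gene of the diaphragm that spans endothelial caveolae (log2 fold change -0.24, adjusted p = 0.086), which passed without knockout 1 (-0.33, adjusted p = 0.011).

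**Figure D4:**
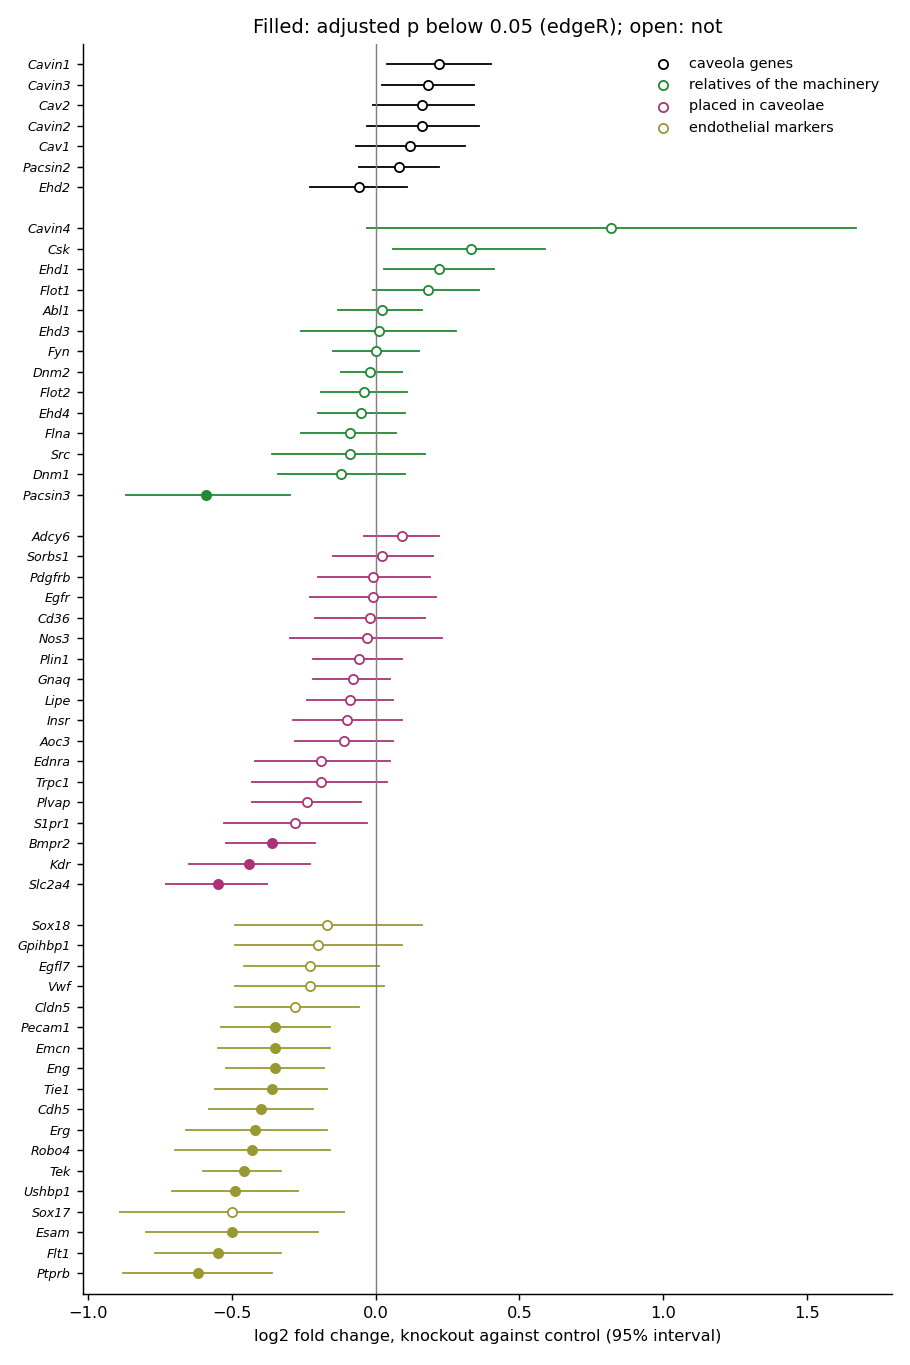
Log2 fold change of knockout against control (edgeR) with 95% interval for the 7 tested caveola genes, 14 relatives, 18 genes placed in caveolae and 18 endothelial markers. Filled points have an adjusted p below 0.05: 0 caveola genes, Pacsin3, Slc2a4, Kdr, Bmpr2 and 12 endothelial markers, all of them lower.

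Markers of endothelium, a cell type rich in caveolae, were lower in the knockouts, whereas 0 of the caveola genes passed in that direction. Of 18 endothelial markers 12 fell and 0 rose, beside 7.05% lower and 5.84% higher over all tested genes. Their median log2 fold change was -0.38, and their summed CPM ran from 1550.9 to 2117.9 in the controls and from 1335.9 to 1551.5 in the knockouts. The count of 12 ran from 5 to 15 when 1 library was left out, and the share of all genes called moved too. It was 5 without control 1 (3.49% of all genes), 7 without control 2 (3.33%), 6 without knockout 5 (5.45%) and 15 without control 5 (19.1%). Tek, the angiopoietin receptor gene, fell from 111.7 ± 6.21 to 81.0 ± 5.92 CPM (adjusted p = 0.002), Flt1, a VEGF receptor gene, by 0.55 (adjusted p = 0.0093) and Ptprb, an endothelial phosphatase gene, by 0.62 (log2 values, adjusted p = 0.011). Control 5 had the lowest endothelial sum of the controls, 1550.9 CPM, and it was also the library whose removal brought Cavin1 and Cavin3 past the threshold. The same library had the highest skeletal muscle sum of the controls, 574.1 CPM, and without it 19.1% of all genes passed. A link of these traits to the 2 calls was not tested. With the endothelial score, the mean log2 CPM of these markers, as a covariate, the log2 fold changes were 0.10 for Cav1, 0.14 for Cavin1, 0.07 for Cavin3, 0.22 for Pacsin2 and -0.17 for Ehd2. None of the 7 passed (adjusted p from 0.593 to 0.925), and in that fit 0.0753% of all genes passed. The difference between the caveola genes and the endothelial markers was not itself tested.

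Of 12 pericyte and smooth muscle markers, another caveola-rich type, 3 fell (Lmod1, Abcc9 and Smtn, adjusted p from 0.034 to 0.045) and 0 rose, and their summed CPM ran from 1287.3 to 1565.5 in the controls and from 1226.9 to 1469.0 in the knockouts. Of 12 mature adipocyte markers 2 rose and 4 fell. Beside both lists, 5.84% of all tested genes rose and 7.05% fell. Cfd, the adipsin gene, fell from 639.9 ± 104.8 to 224.3 ± 37.7 CPM (adjusted p = 1.5e-04), the resistin gene Retn had a log2 fold change of -0.56 (adjusted p = 0.033), and Lep, which encodes leptin, was higher at 5689.0 ± 533.4 against 4088.7 ± 702.8 CPM (adjusted p = 0.024). Their summed CPM, 31510.7 to 37971.2 in the controls and 33278.0 to 43933.8 in the knockouts, was the largest of the marker sums. Without 1 library the counts ran from 0 to 5 for the smooth muscle markers that fell, from 0 to 3 for the adipocyte markers that rose and from 1 to 4 for those that fell. The share of all genes called ran from 3.33% to 19.1% over these fits. The 3 libraries with the highest adipocyte sums, knockouts 5, 2 and 3, held 3 of the 4 highest Cav1 values. These adipocyte sums share their scaling with Cav1. Fabp4 weighed most in them, with a mean of 13293.3 CPM in the controls and 14582.9 CPM in the knockouts. The mean log2 CPM of the same markers, in which each gene counts alike, went the other way and was between -0.43 and -0.02 relative to the control mean in the 5 knockouts. Large falls such as that of Cfd (log2 fold change -1.51) weigh on this mean. The median log2 fold change of the list was -0.02, with 5 genes positive and 7 negative. The part of these cell types in the caveola values was not tested.

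**Figure D5:**
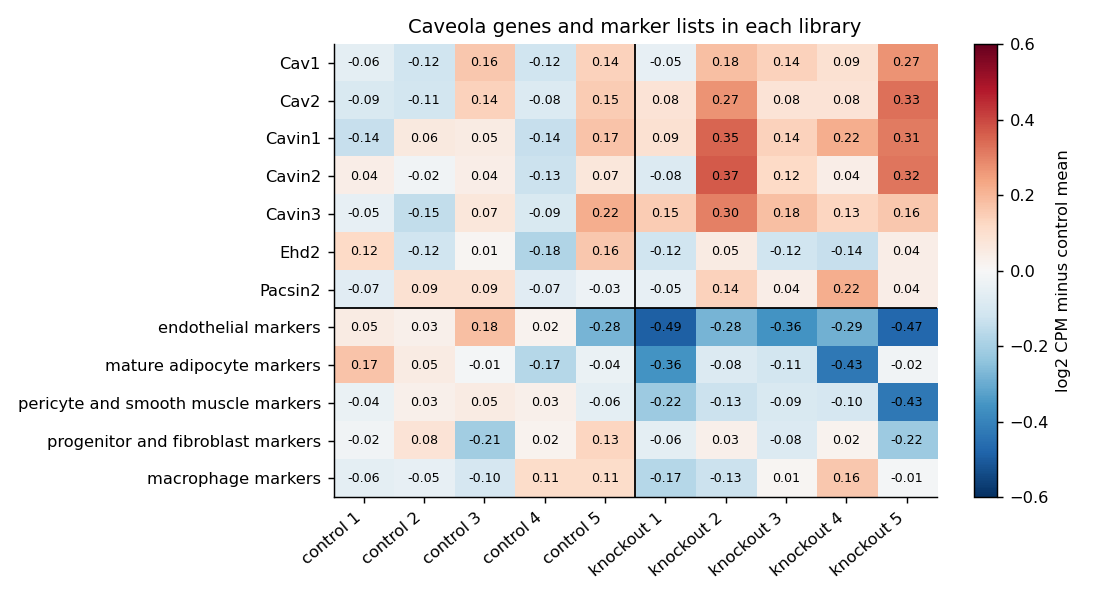
Log2 CPM of the 7 tested caveola genes, and mean log2 CPM of 5 marker lists, in each library minus the mean of the 5 controls. Knockouts 2 and 5 carry the highest Cav1 values, 0.18 and 0.27, and knockout 1 has Cav1 at -0.05. The endothelial markers are at -0.49, -0.28, -0.36, -0.29 and -0.47 in knockouts 1 to 5. In control 3 Cav1 is at 0.16 and the endothelial markers are at 0.18.

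For the libraries as a whole, total counts ran from 14032866 to 17782073. Tcf7l2 checked the labels: it fell to 54.7% of the control level, from 9.16 to 11.4 CPM in the controls to 5.57 to 6.20 CPM in the knockouts (log2 fold change -0.87, adjusted p = 6.1e-04). Of 10 T cell markers 5 rose, among them Cd3d, Cd3g and Cd8b1, and of 8 B cell markers 4 rose, among them Ms4a1, Cd79b and Pax5, but 0 of either list rose without control 1, 2 or 4, and limma-voom called 0. In those 3 fits 3.49%, 3.33% and 5.61% of all genes were called. Of 10 progenitor and fibroblast markers 1 fell, Dpt. Over all tested genes 5.84% rose and 7.05% fell, so 1 of 10 is near the background. Among the macrophage markers (10 tested), skeletal muscle markers (10 of 14 tested) and epithelial markers (1 of 8 tested), 0 passed by edgeR, DESeq2 or limma-voom and 0 had an unadjusted p below 0.05. All 10 tested skeletal muscle markers had a positive log2 fold change, with a median of 1.49, and 7 of them rose without control 5, where 19.1% of all genes were called. The sums of T and B cell markers were highest in knockout 1, at 145.3 and 394.7 CPM against at most 40.9 and 48.1 CPM in the other libraries. Without knockout 1 the members' log2 fold changes lay between -0.04 for Ehd2 and 0.26 for Cavin1. The labels name no batch. The library numbers run through the controls first and the knockouts second, so genotype and any handling in that order cannot be told apart.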

How the data were processed

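The authors' deposited table holds whole-number counts per Ensembl gene for 10 libraries of total RNA, depleted of ribosomal RNA with a stranded kit, per the labels' protocols. STAR 2.5.2b, featureCounts 1.5.1, DESeq2 1.16.0 and GRCm38 are named in the submitters' processing notes. For strand setting, annotation release and multi-mapped reads, nothing is given in the sources used here. Symbols, positions and merged exon lengths came from GENCODE M21, which matched 52489 of the 52636 identifiers.

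Genes were kept by filterByExpr, scaled with TMM factors and tested with the quasi-likelihood F-test of edgeR 4.0.16 (R 4.3.3), knockout against control, with Benjamini-Hochberg adjustment over the 15927 genes kept and a threshold of 0.05. The fit was also run on simulated counts with 200 genes changed by larger folds than those of the members. That run says nothing of the power for the members. Log2 CPM used a prior count of 2. Single values and ratios were compared by exact two-sided permutation tests (SciPy 1.17.1), and the 6 ratios were adjusted together. DESeq2 1.42.0, limma-voom 3.58.1, RLE scaling, 2 other filters, 10 fits without a library and 2 marker scores as covariates were tried, and library totals without TMM factors were added after seeing the data. The 8 members and the 13 gene lists were chosen with earlier results of these data known. The result of 1 marker list is not reported here. The text names all members, Tcf7l2, the called genes of the related lists (up to 6 by smallest p), up to 3 called genes of each marker list, and the 5 genes nearest in pattern to Cav1 and to Cavin1 among those whose average log2 CPM was 1 or more. Other genes of the related lists were named after their values were seen.

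Total counts were 14032866 to 17782073 per library, so 3 counts equal 0.172 to 0.205 CPM, a floor that covers counting error only. Same-group libraries differed beyond counting noise in all 20 pairs (chi-square per degree of freedom 6.57 to 26.2). The titles carry a further number that differs between libraries, but the labels do not say that each library is a separate mouse. The p-values therefore weigh the group difference against the spread between these libraries.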

Additional observations from a re-analysis of the deposited data

Results flagged for a closer look

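In the knockout group, Cavin3 stood at 257.0 CPM in knockout 2 and at 227.8 to 236.1 CPM in the other 4 libraries, and the gap was 0.716 of the range of the group. In the control group, the ratio of Cavin3 to Cavin1 was 10.7% in control 2 and 12.6 to 13.2% in the other 4 libraries, a gap of 0.781 of the range on the log2 scale. A library apart from its group by this measure was looked for in 26 groups of 5, and chance marks about 1 in 20 groups.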

How the results depend on the processing

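Over 8 alternatives that left out no library and 10 fits that left out 1, none of the 126 values of the 7 tested members changed direction. The threshold was crossed by 3 of them: Cavin1 with DESeq2, which made the count of higher members 1, and Cavin1 and Cavin3 without control 5, so that this count ran from 0 to 2 over the fits without a library. Over all tested genes 930 rose and 1123 fell. With the endothelial score as a covariate these counts were 4 and 8, and with the skeletal muscle score 307 and 325. The endothelial score was only just apart between the groups (6.00 to 6.45 in the controls, 5.79 to 5.99 in the knockouts), and that fit can hardly tell it from genotype. Without 1 library they ran from 227 to 1386 higher and from 310 to 1708 lower, and they moved by over 1.5 times in at least 1 direction without control 1, 2, 4 or 5 or knockout 2 or 5. The endothelial score left 0 of the relatives lower and 0 of the genes placed in caveolae lower. With it the log2 fold changes were -0.54 for Slc2a4, -0.47 for Pacsin3, -0.20 for Bmpr2 and -0.16 for Kdr. Without it they were -0.55, -0.59, -0.36 and -0.44. The relatives gave 0 to 1 lower and 0 to 2 higher without 1 library, and 2 higher with no filter, Csk and Pacsin1. The log2 ratio of Pacsin2 to Cav1 ran from -0.09 to 0.01 without 1 library, and 0 of 66 ratio values passed after adjustment. Without 1 library the exact test has too few splits for a single ratio to pass after adjustment. The lowest adjusted p there was 0.095, for Ehd2 to Cav1 without control 3, so those fits say nothing on stability. Without centring on group means, 3 of the 5 genes nearest to Cav1 and 2 of the 5 nearest to Cavin1 were shared. The causes of these changes were not tested. No paired analysis was possible because the labels give no replicate numbers shared between the groups.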

Other observations

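Pacsin1, the neuronal relative of Pacsin2, did not pass the filter on low counts. It had 3, 4, 6, 1 and 5 counts in controls 1 to 5 and 56, 6, 7, 16 and 4 counts in knockouts 1 to 5, so knockout 1 held most of the reads. With no filter its log2 fold change was 2.20 (edgeR adjusted p = 0.0064).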
